A study of Mus musculus with 6 samples.

Results

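Transcripts of 10 G1 cyclin and cyclin-dependent kinase (CDK) inhibitor genes were described in bone marrow-derived macrophages of Cd226-/- and wild-type (WT) mice. The genes were taken by symbol from the 46095 rows of the count table, and all 10 were present: the D-type cyclins Ccnd1, Ccnd2 and Ccnd3, the E-type cyclins Ccne1 and Ccne2, the CIP/KIP inhibitors Cdkn1a and Cdkn1b, and the INK4 inhibitors Cdkn2a, Cdkn2c and Cdkn2d. Cd226 encodes an activating adhesion receptor of immune cells, and the design asks how its loss changes the macrophage transcriptome. Each genotype had 3 RNA sequencing libraries from C57BL/6 mice at postnatal day 56. Cells of both genotypes were grown from marrow with M-CSF at 20 ng/ml for 7 days and then given IFN-γ at 20 ng/ml with LPS at 100 ng/ml for 24 h, so that every library comes from stimulated, M1-type macrophages and none from resting cells. How the Cd226 allele was made, and whether replicates came from separate mice or cultures, is not given in the sources used here, so p-values refer only to how these libraries vary, and that variation could be technical.

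Commitment to a new round of division is made in G1. D-type cyclins, induced by growth factors such as M-CSF, bind CDK4 and CDK6, and E-type cyclins then bind CDK2; the kinases phosphorylate the retinoblastoma (RB) proteins and release E2F transcription factors, which drive S phase genes, Ccne1 among them. INK4 proteins bind CDK4 and CDK6 and keep D-type cyclins off, whereas the CIP/KIP proteins p21 (Cdkn1a) and p27 (Cdkn1b) inhibit CDK2 complexes. Cdkn2a encodes p16Ink4a and, from a separate first exon and another reading frame, p19Arf, which stabilises p53 by holding back MDM2; p53 in turn induces Cdkn1a. In macrophages M-CSF drives proliferation, and LPS and IFN-γ are known to halt it, with p21 and p27 as mediators.

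4 stretches of promoter are given because they belong to the members whose transcripts moved furthest and to the p53 target among them. RefSeq promoter sequences of build GRCm38.p6 were found for 7 of the 10 genes, in 11 windows. In each, the 250 bases before a start site were searched on both strands for the E2F octamers TTTCCCGC, TTTGGCGC, TTTCGCGC and TTTGCCGC and for the p53 decamer consensus; capitals mark the matches, none of which overlapped another. Bases that GENCODE places in an exon of the gene are left off the stretches shown. The upstream start of Cdkn2a, used for p19Arf, is preceded by chr4:89294654-89294869, and its downstream start, used for p16Ink4a, by chr4:89282193-89282442, both on the minus strand. The Ccne1 stretch is chr7:38107535-38107740 on the minus strand, and that of Cdkn1a is chr17:29090729-29090975 on the plus strand, before the upstream of its start sites.
Cdkn2a upstream start: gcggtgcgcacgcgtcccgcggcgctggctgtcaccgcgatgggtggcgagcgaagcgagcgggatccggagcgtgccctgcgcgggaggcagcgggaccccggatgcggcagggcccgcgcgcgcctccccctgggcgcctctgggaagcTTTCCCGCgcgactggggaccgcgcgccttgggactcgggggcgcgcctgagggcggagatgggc
Cdkn2a downstream start: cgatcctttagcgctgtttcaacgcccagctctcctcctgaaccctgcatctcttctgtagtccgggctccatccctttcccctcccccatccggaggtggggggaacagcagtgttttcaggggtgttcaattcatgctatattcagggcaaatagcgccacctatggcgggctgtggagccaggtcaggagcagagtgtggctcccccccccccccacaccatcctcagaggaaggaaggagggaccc
Ccne1: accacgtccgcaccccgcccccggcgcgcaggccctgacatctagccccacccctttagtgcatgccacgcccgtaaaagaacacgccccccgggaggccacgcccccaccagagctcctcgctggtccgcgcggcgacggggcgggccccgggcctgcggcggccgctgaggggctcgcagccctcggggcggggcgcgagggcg
Cdkn1a upstream start: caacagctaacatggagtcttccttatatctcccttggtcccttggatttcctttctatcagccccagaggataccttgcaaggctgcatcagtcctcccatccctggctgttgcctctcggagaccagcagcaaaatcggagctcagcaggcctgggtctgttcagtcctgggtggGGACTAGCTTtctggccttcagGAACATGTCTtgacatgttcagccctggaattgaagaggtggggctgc
The octamer TTTCCCGC stood 99 bases before the upstream Cdkn2a start, and it was the only E2F match among the 11 windows of these genes. At least 1 of the octamers was held by 611 of 32851 mouse promoter windows (1.86%). Among windows of tested genes the share was 3.23% (393 of 12183). In the window of the upstream Cdkn1a start p53 decamers began 73 and 51 bases before that start. The window before the downstream Cdkn1a start held no match. A single decamer lay 102 bases before the Cdkn2d start. At least 1 decamer was held by 7.13% of all windows and 5.89% of the windows of tested genes. A match describes the letters of the window and does not show that a factor binds there.

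Total counts were 16925955 to 18867799 in Cd226-/- libraries and 16838527 to 21658061 in WT libraries. Levels below are CPM, counts per 1000000 after TMM scaling, in which 1 count was worth 0.0452 to 0.0599 CPM. Of 13215 genes tested with edgeR's quasi-likelihood test, 30.9% differed at an adjusted p under 0.05, 16.1% higher and 14.8% lower in Cd226-/-; scaled by library size alone, 1773 genes were higher and 2770 lower in place of 2130 and 1956. Cd226 itself had 11, 10 and 8 counts in Cd226-/- replicates 1 to 3 against 5, 17 and 23 counts in WT replicates 1 to 3 and had a log2 fold change of -0.50 ± 0.50 (SE; adjusted p = 0.48), so the counts do not check the genotype labels. Within Cd226-/-, replicate 1 stood apart, with a chi-square over degrees of freedom of 7.61 and 7.76 against replicates 2 and 3. Those replicates differed from each other by 2.17. WT pairs lay between, at 4.61 for replicates 1 and 2, 3.79 for 1 and 3 and 6.32 for 2 and 3. The same 5 members were higher and the same 2 lower when Cd226-/- replicate 1 was left out. They were also called with replicate 1 as the only Cd226-/- library, a fit whose spread comes from the WT libraries alone and assumes that the lone library varies like them.

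All 10 members passed the filter on low counts and were tested, Ccne2 only through its Cd226-/- libraries. Of these, 5 rose (Ccnd2, Ccnd3, Ccne1, Cdkn1b and Cdkn2d), 2 fell (Cdkn1a and Cdkn2a) and 3 did not pass (Ccnd1, Ccne2 and Cdkn2c), against 30.9% called among all tested genes and 37.3% called in a fit restricted to genes averaging 5 CPM or more. The median log2 fold change of the 10 was 0.43, against -0.0045 over all tested genes. In 8 members the libraries of the genotypes did not overlap, as in 44.3% of tested genes. Each of the classes held at least 1 gene that rose, and the inhibitors split: of the 5 inhibitor genes, 2 rose and 2 fell.

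**Figure D1:**
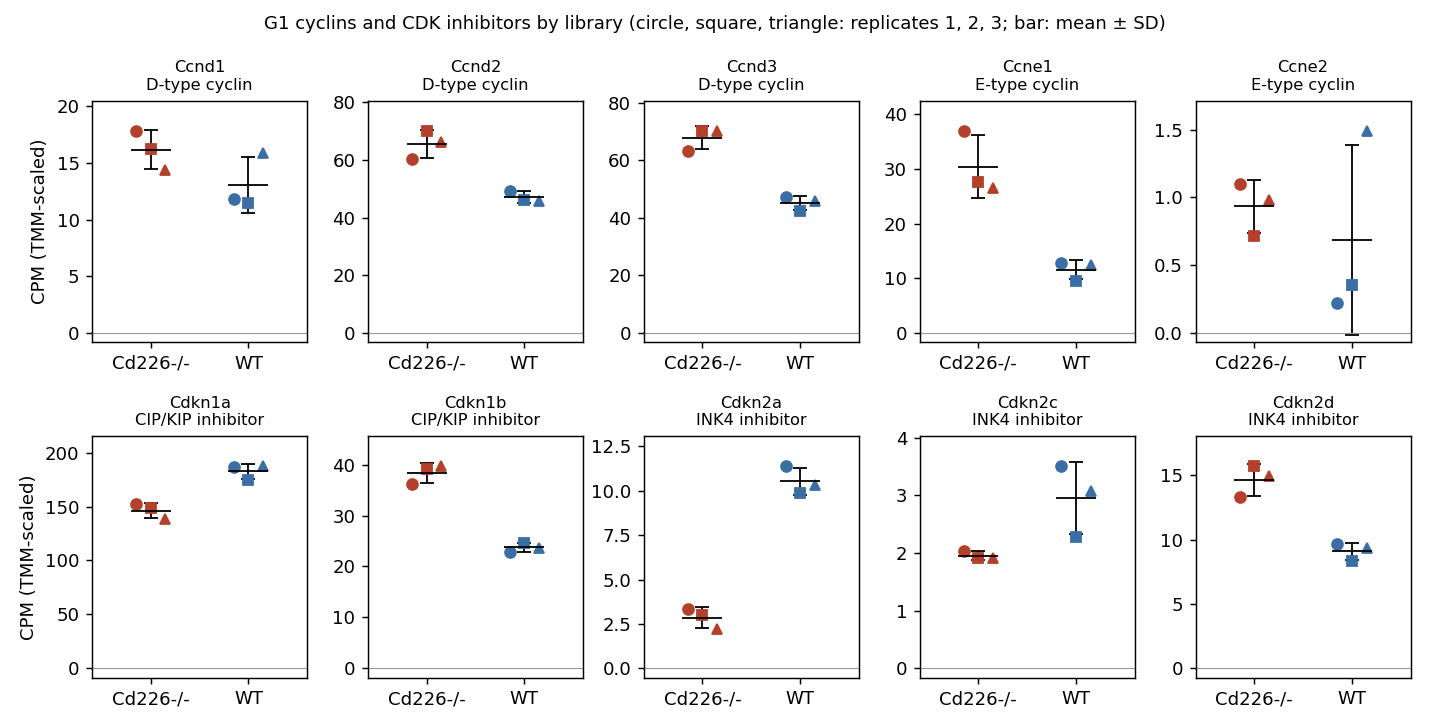
CPM of each gene (vertical axis, TMM-scaled, separate scale per panel) in the 3 Cd226-/- libraries (left) and the 3 WT libraries (right), with the mean ± SD. The genotypes separate without overlap in 8 panels; in Ccnd1 and Ccne2 the triangle, WT replicate 3, lies above at least 1 Cd226-/- library.

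The D-type cyclins link growth factor signals to the cell cycle. Ccnd3, cyclin D3 (chromosome 17, 47505051 to 47599691), had 63.3, 70.2 and 70.3 CPM in Cd226-/- libraries, against 47.3, 42.6 and 45.8 CPM in WT libraries. Every Cd226-/- library was above every WT library, and the gene rose (log2 fold change 0.59 ± 0.07 (SE), edgeR adjusted p = 4.5e-07). Ccnd2, cyclin D2 (chromosome 6, 127125162 to 127152193), had 60.2, 70.1 and 66.1 CPM in Cd226-/- libraries, against 49.4, 45.9 and 45.9 CPM in WT libraries. It rose 1.39-fold (adjusted p = 9.79e-06), again without overlap. Ccnd1, cyclin D1 (chromosome 7, 144929931 to 144939925), the best known M-CSF-induced cyclin of macrophages, had 17.8, 16.2 and 14.4 CPM in Cd226-/- libraries, against 11.8, 11.4 and 15.9 CPM in WT libraries. Here WT replicate 3 lay between Cd226-/- replicates 3 and 2, and the log2 fold change of 0.30 ± 0.13 (SE) missed the threshold (adjusted p = 0.078). Without WT replicate 3 it passed (log2 fold change 0.47, adjusted p = 0.011); over all alternatives its adjusted p ranged from 0.011 to 0.268. Exons of the opposite-strand gene LTO1 cover 23.4% of the Ccnd1 exon bases, and since the strand setting of the counting is not given in the sources used here, part of these counts could belong to either gene.

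The E-type cyclins, which activate CDK2 at the entry into S phase, were very unequal in level. Ccne1, cyclin E1 (chromosome 7, 38097984 to 38107534), had 37.0, 27.7 and 26.6 CPM in Cd226-/- libraries, against 12.8, 9.52 and 12.5 CPM in WT libraries. The lowest Cd226-/- library was above the highest WT library, and Cd226-/- replicate 1 was the highest of all. Its rise of 2.61-fold (log2 fold change 1.38 ± 0.14 (SE), adjusted p = 6.08e-06) was the largest among the members, and the log2 fold change was 1.22 to 1.67 over the alternatives. Ccne2, cyclin E2 (chromosome 4, 11191351 to 11204779), was near the limit of detection, with 20, 12 and 18 counts in Cd226-/- libraries against 4, 6 and 33 counts in WT libraries. WT replicate 3 had the highest count and the other WT libraries the lowest. Its log2 fold change was 0.38 ± 0.54 (SE) and missed the threshold (adjusted p = 0.637). Without WT replicate 3 the log2 fold change was 1.70 (adjusted p = 0.0445), and without WT replicate 1 it was -0.029 (adjusted p = 0.975). Of the Ccne2 exon bases 17.4% lie in exons of Ints8 on the opposite strand.

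Both CIP/KIP genes passed, in opposite directions. Cdkn1a, encoding p21 (chromosome 17, 29090976 to 29100727), was the most abundant member: it had 152, 148 and 138 CPM in Cd226-/- libraries, against 186, 175 and 187 CPM in WT libraries. All Cd226-/- values were below all WT values, and the fall was small (log2 fold change -0.32 ± 0.05 (SE), adjusted p = 6.1e-05). Cdkn1b, encoding p27 (chromosome 6, 134920401 to 134925513), had 36.1, 39.2 and 39.7 CPM in Cd226-/- libraries, against 22.9, 24.6 and 23.7 CPM in WT libraries. It rose 1.61-fold (adjusted p = 5.12e-07), with no overlap. The third gene of the class, Cdkn1c (p57), had 28, 29 and 13 counts in Cd226-/- libraries against 18, 7 and 23 counts in WT libraries and did not pass (adjusted p = 0.241).

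The INK4 genes divided as well. Cdkn2a (chromosome 4, 89274471 to 89294653) had 61, 50 and 41 counts, or 3.36, 2.99 and 2.23 CPM, in Cd226-/- libraries, against 208, 169 and 229 counts, or 11.4, 9.87 and 10.3 CPM, in WT libraries. The groups were far apart relative to their spread (2.86 ± 0.576 CPM in Cd226-/- and 10.5 ± 0.777 CPM in WT; SD, n = 3 each). Its log2 fold change was -1.88 ± 0.17 (SE; adjusted p = 2.55e-08), between -2.02 and -1.64 over the alternatives, and it was number 26 of the 13215 tested genes ordered from the lowest log2 fold change. The table has a single row for the gene, so transcripts from the upstream and downstream starts shown above, and with them p19Arf and p16Ink4a, cannot be told apart. Cdkn2d, encoding p19Ink4d (chromosome 9, 21288410 to 21291407), had 241, 262 and 275 counts in Cd226-/- libraries, against 176, 143 and 206 counts in WT libraries, or 14.6 ± 1.24 CPM in Cd226-/- and 9.10 ± 0.669 CPM in WT (SD, n = 3 each). It rose 1.61-fold (adjusted p = 1.24e-04), without overlap. Cdkn2c, encoding p18Ink4c (chromosome 4, 109660876 to 109667189), had 37, 32 and 35 counts in Cd226-/- libraries, against 64, 39 and 68 counts in WT libraries. In CPM the libraries did not overlap, yet the log2 fold change of -0.60 ± 0.26 (SE) missed the threshold (adjusted p = 0.0845); it passed without WT replicate 2 (-0.75, adjusted p = 0.0488), with a range of 0.0488 to 0.356 over the alternatives.

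**Figure D2:**
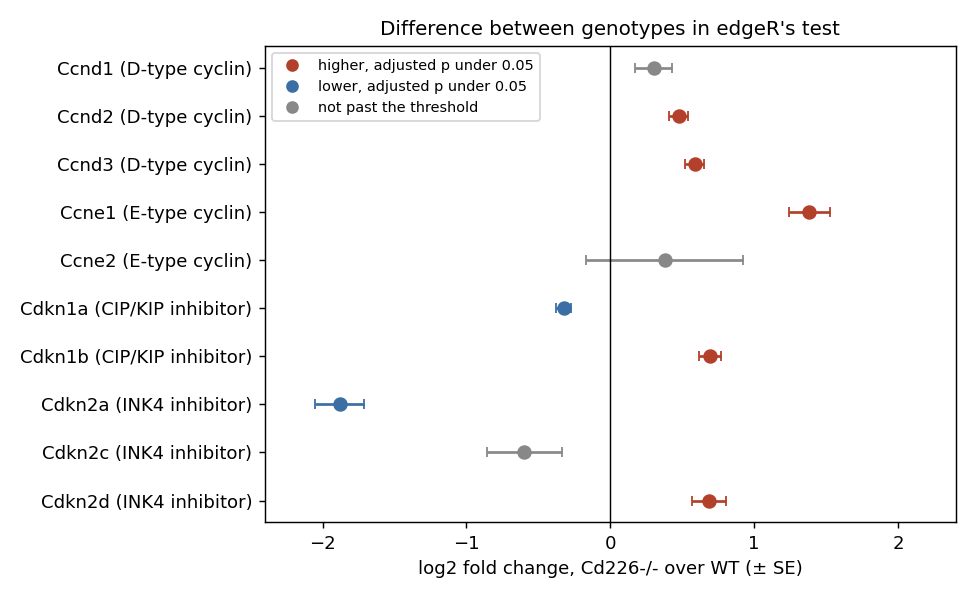
Log2 fold change of each gene, Cd226-/- over WT (horizontal axis), with its SE, from edgeR's test across all genes; colour gives the call. Ccne1 at 1.38 and Cdkn2a at -1.88 lie furthest from 0, and each inhibitor class holds a gene on either side of 0.

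Cdkn2b, the remaining INK4 gene (p15Ink4b), lies next to Cdkn2a at 89306299 to 89311039 on chromosome 4. It had 71, 67 and 82 counts in Cd226-/- libraries, against 112, 101 and 196 counts in WT libraries, and fell too (log2 fold change -0.76 ± 0.18 (SE), adjusted p = 0.00317). Of 39 protein-coding genes in the table within 1000000 bases of Cdkn2a, 27 had no count, many of them type I interferon genes, and 6 were tested, Cdkn2a and Cdkn2b included. Mtap, the methylthioadenosine phosphorylase gene on the other side of Cdkn2a, had a log2 fold change of -0.63 (12.7 ± 1.26 CPM in Cd226-/- and 19.7 ± 3.07 CPM in WT; SD, n = 3 each; adjusted p = 3.03e-04). Farther out, Hacd4 fell (log2 fold change -0.79), Focad rose (0.77) and Klhl9 did not pass (-0.11, adjusted p = 0.216). The nearest tested genes on either side of Cdkn2a, Mtap and Cdkn2b, therefore fell with it, whereas those farther out did not all move one way. Whether the falls of these neighbours are linked was not tested.

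Levels of different genes were set side by side as CPM per kilobase of exon. Cdkn1a led in either genotype, at 41.2 ± 1.99 in Cd226-/- and 51.4 ± 1.97 in WT (SD, n = 3 each). Behind it the order differed: in Cd226-/- Ccne1 was next (11.4 ± 2.15), while Cdkn2a was the eighth of 10 (2.44 ± 0.491). In WT Cdkn2a was next (8.99 ± 0.663), and Ccne1 was the seventh (4.36 ± 0.685). After Ccne1 in Cd226-/-, and after Cdkn2a in WT, came Cdkn2d, Cdkn1b, Ccnd3 and Ccnd2, in that order in each genotype, with Cdkn2d at 9.30 ± 0.789 in Cd226-/- and 5.78 ± 0.425 in WT, and Ccnd3 at 7.74 ± 0.459 in Cd226-/- and 5.15 ± 0.276 in WT. Neighbours among these 4 genes overlapped in range within each genotype, whereas no other neighbours in the order did. Last in each were Cdkn2c (0.727 in Cd226-/- and 1.10 in WT) and Ccne2 (0.267 in Cd226-/- and 0.197 in WT). The order depends on the length used: per kilobase of the longest transcript Ccnd3 was in place 2 in Cd226-/- and 3 in WT, Ccne1 in place 3 and 6, and Cdkn2a in place 8 and 2.

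The make-up of the INK4 members, taken as Cdkn2a, Cdkn2c and Cdkn2d, differed between genotypes. Cdkn2a made up 23.8, 19.3 and 15.7% of their summed CPM per kilobase in Cd226-/- libraries, against 56.7, 57.8 and 55.6% in WT libraries. Cdkn2d made up 74.6 ± 4.30% in Cd226-/- and 36.4 ± 0.758% in WT (SD, n = 3 each). The sum of the 3 genes was 12.5 ± 0.665 CPM per kilobase in Cd226-/- and 15.9 ± 1.29 in WT. With Cdkn2b added, a choice made after seeing the data, Cdkn2a made up 15.8 ± 3.43% in Cd226-/- and 43.2 ± 3.03% in WT, Cdkn2d 60.2 ± 3.01% in Cd226-/- and 27.7 ± 1.00% in WT, and the genotypes again did not overlap in either share. Of Cdkn1a and Cdkn1b together, Cdkn1a made up 83.0 ± 1.32% in Cd226-/- and 90.8 ± 0.618% in WT. D-type cyclins summed to 18.1 ± 0.747 CPM per kilobase in Cd226-/- and 12.9 ± 0.679 in WT. Of this sum Ccnd3 made up 42.7 ± 1.45% in Cd226-/- and 39.9 ± 1.12% in WT, and Ccnd2 38.3 ± 1.37% in Cd226-/- and 38.8 ± 2.19% in WT. E-type cyclins, mainly Ccne1, summed to 11.7 ± 2.19 CPM per kilobase in Cd226-/- and 4.56 ± 0.777 in WT. Cdkn1a and Cdkn1b summed to 49.6 ± 1.67 in Cd226-/- and 56.7 ± 1.81 in WT. The log2 ratio of all 5 inhibitors to all 5 cyclins was 0.99, 1.11 and 1.08 in Cd226-/- libraries, against 2.05, 2.13 and 1.99 in WT libraries. Cdkn1a was the largest part of the inhibitor sum in each genotype, whereas the cyclin sums differed more between genotypes in relative terms. Every one of these values of the members except the Ccnd2 share separated the genotypes without overlap, with a two-sided exact permutation p = 0.1, the smallest that 3 against 3 libraries allow (0.136 adjusted over the 19 quantities compared); the Ccnd2 share overlapped (exact permutation p = 0.7).

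**Figure D3:**
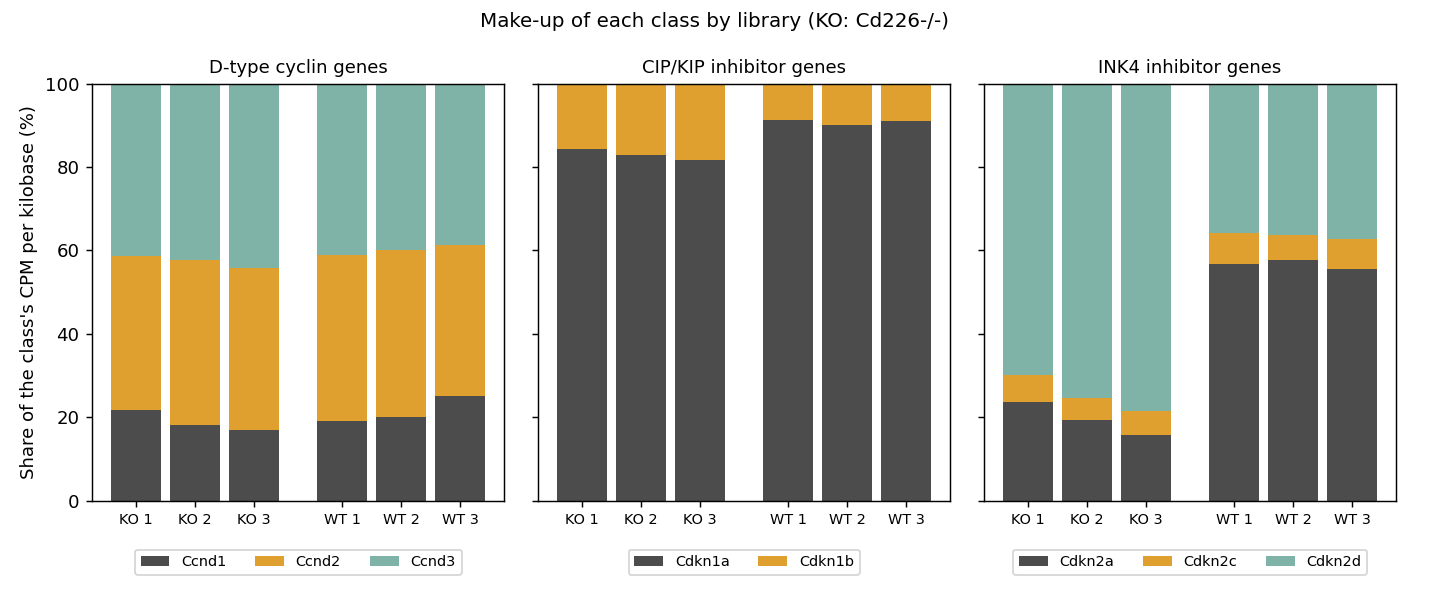
Share of each gene in the summed CPM per kilobase of the members of its class (vertical axis, %), for D-type cyclins, CIP/KIP and INK4 genes without Cdkn1c and Cdkn2b, with 1 bar per library, Cd226-/- (KO) left and WT right. In the INK4 panel Cdkn2a takes 15.7 to 23.8% in Cd226-/- and 55.6 to 57.8% in WT, whereas Ccnd1 and Ccnd2 overlap between genotypes in the D-type panel.

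The kinases that these proteins act on did not pass. Cdk4 had a log2 fold change of -0.021 (adjusted p = 0.84), Cdk6 of -0.083 (0.404) and Cdk2 of 0.17 (0.192), with SE of 0.064, 0.071 and 0.095. Of 10 tested CDK partners and remaining inhibitors, 0 rose and 2 fell, Cdkn2b and the CDK-activating subunit Mnat1 (-0.40, adjusted p = 0.0083); among all tested genes 16.1% rose and 14.8% fell. Mnat1 was not called without Cd226-/- replicate 2 (adjusted p = 0.0503) or without WT replicate 3 (0.0583). Upstream, the M-CSF receptor gene Csf1r fell (1162 ± 20.8 CPM in Cd226-/- and 1419 ± 29.4 CPM in WT; SD, n = 3 each; adjusted p = 8.81e-05), as did its ligand gene Csf1 (log2 fold change -0.81 ± 0.08 (SE)). Of 21 genes of mitogen signalling to cyclin D, 9 rose and 3 fell (median log2 fold change 0.15), beside the same shares over all tested genes. The risers included Mycl (log2 fold change 1.40), the adaptor gene Grb2 (0.30) and, named after their values were seen, the MYC antagonist genes Mxd1 (1.19), Mxi1 (0.52) and Mnt (0.23). Of the same family Mxd4 was not called (0.24, adjusted p = 0.24) and Mxd3 was not tested; Myc did not pass (-0.21, adjusted p = 0.544).

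Downstream, neither Rb1 (log2 fold change -0.035, adjusted p = 0.717) nor E2f1 (-0.20, adjusted p = 0.101) passed. Of 16 RB, E2F and DP genes 4 rose and 2 fell (median -0.016). Rbl1, encoding the RB relative p107, rose 1.44-fold, E2f2 3.75-fold (2.16 ± 0.376 CPM in Cd226-/- and 0.566 ± 0.121 CPM in WT; SD, n = 3 each) and the repressor gene E2f8 2.16-fold, while the DP partner gene Tfdp1 fell (-0.35). E2f2 passed the filter on low counts only through its Cd226-/- libraries, where it is high, and E2f8 was not called without WT replicate 3 (adjusted p = 0.0512). Of 32 replication and S phase genes 6 rose and 1 fell (median 0.14), where 16.1% of all tested genes rose and 14.8% fell. Uhrf1 (2.89-fold), Mcm5 (1.70-fold) and Pole (2.55-fold) rose from low levels. Named after their values were seen, Pola1 fell (log2 fold change -0.60, adjusted p = 0.0364), and the 25 not called included the more abundant Pcna (0.13), Mcm3 (0.040), Mcm6 (0.021) and Rrm1 (-0.014). Ccna2, the cyclin A2 gene, is among the 6 but was tested only through its Cd226-/- libraries: it had 15, 14 and 43 counts in Cd226-/- libraries against 9, 5 and 8 counts in WT libraries. Its 3.47-fold difference turned on Cd226-/- replicate 3, without which it was 2.16-fold and not called (adjusted p = 0.161). Of 20 tested G2 and mitosis genes, 6 rose and 0 fell (median 0.44), among them Top2a (2.05-fold), Tpx2 (1.77-fold) and Prc1 (2.20-fold); the other 8 of the 28 listed did not reach the filter. Of the 20, 8 passed it through the libraries of 1 genotype or only with both genotypes combined, Kif20a being the riser among them (named after its values were seen). Prc1 was not called without Cd226-/- replicate 3 (adjusted p = 0.0733) or without WT replicate 2 (0.0512). Mki67, the proliferation marker, had 23.7, 30.4 and 31.7 CPM in Cd226-/- libraries, against 23.2, 23.8 and 20.0 CPM in WT libraries (1.28-fold, adjusted p = 0.0129), and Cd226-/- replicate 1 overlapped WT. It was not called without Cd226-/- replicate 2 (0.0535), Cd226-/- replicate 3 (0.0825) or WT replicate 3 (0.0828), all adjusted p. The G2 and mitosis genes that rose numbered 3 without Cd226-/- replicate 3, 3 without WT replicate 3 and 4 without WT replicate 2. At an adjusted p under 0.01 they numbered 2. They stayed at 6 with DESeq2 size factors, with library size alone and with no filter. Among genes averaging 5 CPM or more 1 rose, but most of the list, Top2a and Tpx2 included, lies below that level and was not counted there. Among all tested genes, the background of each list count in this paragraph, 16.1% rose and 14.8% fell.

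Along the axis from Arf to p53, Trp53 fell (26.1 ± 1.46 CPM in Cd226-/- and 32.0 ± 1.96 CPM in WT; SD, n = 3 each; adjusted p = 0.00885; 0.05 and not called without WT replicate 1), while the log2 fold change of Mdm2 was 0.016 (adjusted p = 0.863). Of 12 genes that control ARF and p53, 3 rose and 3 fell (median 0.031); Id2 rose 1.32-fold and Jdp2 1.57-fold, and Hmga2, known to repress the Ink4a/Arf locus, fell (-1.35 ± 0.30 (SE)). Of 25 p53 target genes other than Cdkn1a, 6 rose and 9 fell (median -0.13). Over all tested genes 16.1% rose and 14.8% fell, which is also the background of the ARF and p53 list and of the turnover list. Cyclin G1 (Ccng1) had a log2 fold change of -0.48, Trp53inp1 of -0.57 and the nuclease gene Aen of -0.66. The strongest call among the risers was Sesn2 (1.83-fold), a gene also induced by the amino acid response. Of 15 turnover genes 1 rose and 3 fell (median -0.00077): the F-box gene Fbxo31, whose product targets cyclin D1, fell by 0.70 on the log2 scale, Skp1a by 0.27 and Cul4a by 0.25, Usp28 rose 1.34-fold, and Skp2, which targets p27, did not pass (adjusted p = 0.646).

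**Figure D4:**
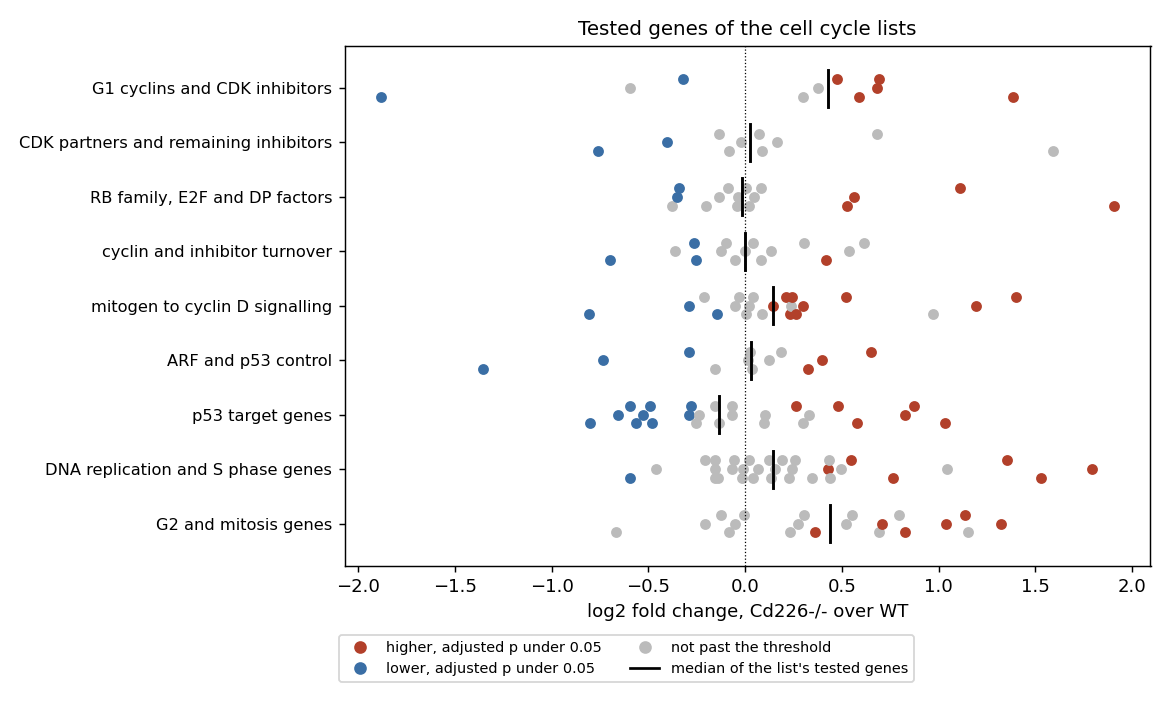
Log2 fold change, Cd226-/- over WT (horizontal axis), of each tested gene in the members' list and 8 related lists; 1 dot per gene, coloured by call, with the list's median as a bar. Medians run from -0.13 for p53 targets to 0.44 for G2 and mitosis genes, and the members' list spans the range from Cdkn2a at -1.88 to Ccne1 at 1.38.

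The profiles most like those of the outermost members were sought among 8996 tested genes averaging 5 CPM or more, leaving out predicted genes, RIKEN clones, pseudogenes and accession-type names, as the Euclidean distance between centred log2 CPM values over the 6 libraries. Nearest to Ccne1 were Rhoh (distance 0.143), Klf4 (0.238) and Pdgfrb (0.242). Rhoh had 85.4, 64.5 and 67.7 CPM in Cd226-/- libraries, against 32.5, 23.9 and 29.7 CPM in WT libraries. Nearest to Cdkn2a were Cryab (0.464), Cxcl2 (0.546) and Col12a1 (0.55), so no candidate was as close to Cdkn2a as Rhoh was to Ccne1. The distances are not on an equal footing: Cdkn2a had 41 to 61 counts in Cd226-/- libraries and Ccne1 463 to 672. The part of counting error in them was not tested.

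Markers of other cells were counted beside these values, since cultures are bulk samples in which a change in cell numbers and a change in RNA per cell cannot be told apart. The 8 macrophage markers summed to 19192 to 19984 CPM in Cd226-/- libraries and 17914 to 19874 CPM in WT libraries. Of these, 4 rose and 3 fell. Over all tested genes, the background of each marker count here, 16.1% rose and 14.8% fell. Fibroblast and stroma markers summed to 768 to 800 CPM in Cd226-/- libraries and 497 to 577 CPM in WT libraries. Of the 6 tested markers 5 were higher, Col1a2 (1.86-fold) and Col3a1 (1.66-fold) among them. Dcn, as abundant as these collagen genes, was not called (log2 fold change -0.092, edgeR adjusted p = 0.304). Its mean was 144 ± 7.49 CPM in Cd226-/- and 153 ± 15.4 CPM in WT (SD). B cell markers summed to 30.8 to 41.2 CPM in Cd226-/- libraries and 13.4 to 15.7 CPM in WT libraries, with 5 of 6 higher, such as Ms4a1 (3.99-fold) and Cd79a (2.42-fold). Progenitor markers, Kit and Gata2 among them, summed to 12.4 to 14.2 CPM in Cd226-/- libraries and 18.3 to 26.3 CPM in WT libraries. Neutrophil sums overlapped (57.7 to 64.4 CPM in Cd226-/- and 49.4 to 62.7 CPM in WT). Nearly all of this sum was S100a8 (58.8 ± 3.61 CPM in Cd226-/- and 55.2 ± 6.58 CPM in WT, mean ± SD). Only 2 of the 8 neutrophil markers reached the filter, so the sum says little of neutrophil numbers. T and NK cell sums overlapped too, and 3 of 4 erythroid markers were at 0 in all libraries. Dendritic cell markers summed to 66.3 to 76.2 CPM in Cd226-/- libraries and 41.6 to 57.6 CPM in WT libraries. Most of this sum was Ccr7, the only one of 4 tested to pass. Its mean was 63.6 ± 4.89 CPM in Cd226-/- and 43.4 ± 7.25 CPM in WT (SD). Log2 fold changes of the others tested, none called, were 0.71 for Flt3, 0.024 for Zbtb46 and -0.32 for Clec9a. The part of these cells in the cyclin and inhibitor differences was not tested.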

How the data were processed

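The authors deposited raw gene counts, whole numbers without normalization, with 1 column per library; each column was matched to a library by its title, and 0 columns were left unused. HISAT2 and the genome build GRCm38 are named per the submitters' processing notes; how reads were counted, on which annotation and with or without strand, is not given in the sources used here. Depth and the worth of a single count are given with the results. Libraries of the same genotype differed by more than counting error, with a chi-square over degrees of freedom of 2.17 to 7.76.

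Counts of all genes were filtered with filterByExpr, scaled by TMM and tested in R 4.3.3 with edgeR 4.0.16 (robust quasi-likelihood F-test, two-sided, genotype as the only term), with p-values adjusted by Benjamini and Hochberg over 13215 genes. Standard errors are the log2 fold change over the square root of F. The steps were tested on simulated data. Lengths, positions and overlaps come from GENCODE M21 (GRCm38); lengths are unions of exons. Shares, sums and ratios of CPM per kilobase were compared with exact two-sided permutation tests.

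The members and lists were chosen with earlier results of these data known. All members are named; of each related list, up to 4 genes with the smallest adjusted p under 0.05, with a fixed set of regulators (Cdk2, Cdk4, Cdk6, Cdkn1c, Cdkn2b, Rb1, E2f1, Myc, Trp53, Mdm2, Skp2, Mki67 and Csf1r) whatever their values, and 3 genes of like profile for the largest rise and fall. Genes near Cdkn2a were chosen by position. Alternatives were DESeq2 1.42.0 size factors and Wald test, limma-voom (limma 3.58.1), library size alone, no filter, a mean of at least 5 CPM, an adjusted p under 0.01, leaving out each library, a replicate block, the longest transcript as length and, chosen after seeing the data, Cd226-/- replicate 1 alone and Cdkn2b and Cdkn1c added to their classes.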

Additional observations from a re-analysis of the deposited data

How the results depend on the processing

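The 7 calls among the members held under all 14 alternative fits and at an adjusted p under 0.01; the fit with Cd226-/- replicate 1 alone takes its spread from the WT libraries only. The members called numbered 7 to 9 over the fits that leave out a library: Ccnd1 and Ccne2 were added without WT replicate 3 (log2 fold changes 0.47 and 1.70) and Cdkn2c without WT replicate 2 (-0.75). Genes called in all were 4086, against 2636 at an adjusted p under 0.01. The related lists held 58 called genes, and 43 to 58 over the alternatives other than the stricter threshold, which left 39. Same-numbered libraries of the genotypes deviated with correlations of 0.0105, -0.0128 and 0.0151, and differently numbered ones with -0.0199 to 0.00683. No pairing by replicate number was seen, but these values cannot exclude a pairing of small effect. With the replicate number as a block, 7 members and 4137 genes were called. The difference in the log2 ratio of inhibitors to cyclins was -1.03 to -0.96 when each library was left out, -1.01 with the longest transcripts and -1.02 with Cdkn2b and Cdkn1c added. Ccne2 and Cdkn2c gave no value at a mean of at least 5 CPM. Depth limits Ccne2, with 4 to 33 counts per library.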
